A study of Mus musculus with 16 samples.

Results

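A set of 10 genes that build the elastic fiber or cross-link it was followed through 16 RNA-Seq libraries of mouse chondrocytes: elastin (Eln), the microfibril genes Fbn1, Mfap4 and Mfap5, the fibulin Fbln5, and the lysyl oxidases Lox, Loxl1, Loxl2, Loxl3 and Loxl4. They were chosen by gene symbol from the 55414 genes of the count files, on a list drawn up with the genotype and TNFα differences of these same counts in view. All 10 were found and passed the filter on low counts in every comparison. No threshold on a value set the list, and Eln, Fbn1, Mfap4 and Mfap5 are among the genes that the study singled out between genotypes under TNFα. Their counts of calls are therefore a description and not independent evidence of a direction.

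The cells were chondrocyte-enriched preparations from the epiphyses of 3- to 4-day-old male and female mice on a C57BL/6 background. Donor pups were either heterozygous for Notch2tm1.1Ecan, an allele that makes a NOTCH2 receptor without its degradation domain and so carries a gain of function in every cell that expresses Notch2, or were control littermates. Cells of each genotype were treated in culture with vehicle or with TNFα, an inflammatory cytokine, at 50 ng/ml for 6 h, which gave control vehicle, Notch2tm1.1Ecan vehicle, control TNFα and Notch2tm1.1Ecan TNFα groups of 4 libraries each. The labels mention serum deprivation for the TNFα groups alone, while the study's text describes serum-free conditions for both treatments. Pups of both sexes were pooled, and the labels number the 4 libraries of a group as biological replicates. The sources used here do not say whether these came from separate litters or cultures, so the p values measure the spread between these libraries. Counts per gene do not show the altered codon of the allele and do not check the genotype labels.

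The libraries held between 3439726 and 44237300 counts on genes, with a median of 17062419. Cartilage markers were abundant, and Col2a1, the main collagen of cartilage, averaged 37604 CPM in control vehicle libraries, where CPM is the count scaled to library size after TMM normalization (counts per 1000000). Control vehicle replicate 4 stood apart: its summed level of 8 TNFα target genes was 987 CPM, against 164 to 174 CPM in the other 3 control vehicle libraries. Control TNFα replicate 4 had a summed level of 4786 CPM, against 5437 to 5972 CPM in the other 3 control TNFα libraries. Notch2tm1.1Ecan TNFα replicate 4 was the smallest library. Calls that changed without 1 of these 3 libraries are given with and without it.

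Elastic fibers consist of a core of cross-linked elastin laid on a scaffold of microfibrils, and they let tissues such as arteries, lung, skin and elastic cartilage recoil. Fibrillin-1 is the main protein of the microfibril, and microfibrils also hold latent TGF-β in the matrix. Fibulin-5 tethers elastin monomers to the microfibril, and the copper-dependent lysyl oxidases then oxidize lysines of elastin and of fibrillar collagens, from which covalent cross-links form. Hyaline cartilage of the epiphysis is rich in collagen and poor in elastin, and lysyl oxidases serve mainly its collagen.

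Lox and Loxl1 had the highest mean levels of the 10 in every group when levels were set per length, as CPM per kilobase of the canonical transcript. In control vehicle cells Lox, the founding member of the family, reached 927 ± 39.8 CPM per kilobase (SD, n = 4) and ranked 29 of 13155 genes. Loxl1 followed at 167 ± 5.02 CPM per kilobase, and then Loxl4 at 96.9 ± 3.67 CPM per kilobase. Neither of these steps down the order was bridged by an overlap of libraries.

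Below them in control vehicle cells, Loxl3 (64.6 CPM per kilobase) and Fbn1 (63.8) overlapped in their libraries, as did Loxl2 (28.1) and Eln (25.1), so the order within these pairs is not resolved. Fbln5 lay between the pairs at 33.7 CPM per kilobase, Mfap5 was at 11.7 and Mfap4 was last at 3.00 CPM per kilobase. The order was different in Notch2tm1.1Ecan vehicle cells, where Fbn1 (119 CPM per kilobase) and then Eln (79.9) followed Loxl1, and Loxl4 (48.0) lay below Loxl3 (62.1), with no overlap between neighbours. In Notch2tm1.1Ecan TNFα cells Loxl1 (216 CPM per kilobase) and Fbn1 (197) overlapped in their libraries, and with all annotated exons as the length Fbn1 (195) lay above Loxl1 (182). With all annotated exons as the length Eln lay below Loxl4 in Notch2tm1.1Ecan vehicle cells and overlapped Fbln5, since its exon models sum to 8260 bp and its canonical transcript to 3998 bp.

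Promoter sequence was available for 3 of the 10 genes in the RefSeq table used, Fbn1, Fbln5 and Loxl4, and is shown for these whatever their direction between genotypes. Each line gives the 250 bases upstream of the start in the orientation of the gene (build GRCm38.p6), with capitals marking TGGGAA, the core bound by RBPJ, the DNA-binding partner of the Notch intracellular domain, or the GC box GGGCGG, on either strand. For Fbn1 the stretch is chr2:125506439-125506688 on the minus strand, for Fbln5 chr12:101819120-101819369 on the minus strand and for Loxl4 chr19:42612807-42613056 on the minus strand.
Fbn1: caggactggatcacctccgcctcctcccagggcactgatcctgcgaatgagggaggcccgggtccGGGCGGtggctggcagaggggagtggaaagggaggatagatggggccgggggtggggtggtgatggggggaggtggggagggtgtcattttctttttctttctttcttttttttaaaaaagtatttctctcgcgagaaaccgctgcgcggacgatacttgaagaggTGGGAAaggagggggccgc
Fbln5: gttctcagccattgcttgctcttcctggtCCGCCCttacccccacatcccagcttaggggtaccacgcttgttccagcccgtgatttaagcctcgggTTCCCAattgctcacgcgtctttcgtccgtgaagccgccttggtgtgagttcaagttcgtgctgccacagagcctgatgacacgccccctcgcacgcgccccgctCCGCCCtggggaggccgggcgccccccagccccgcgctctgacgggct
Loxl4: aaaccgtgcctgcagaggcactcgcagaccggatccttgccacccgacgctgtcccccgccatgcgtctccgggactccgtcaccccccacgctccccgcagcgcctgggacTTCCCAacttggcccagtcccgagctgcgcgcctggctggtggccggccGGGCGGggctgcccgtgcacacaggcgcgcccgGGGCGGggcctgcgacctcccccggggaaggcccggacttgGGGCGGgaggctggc

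Each of these 3 stretches held 1 match to TGGGAA, at 19 to 14 bases before the start in Fbn1, 153 to 148 in Fbln5 and 138 to 133 in Loxl4, the last 2 on the opposite strand. The same 6 letters occurred in 21.6% of 32851 promoters of that length, and the GC box, found 1, 2 and 3 times respectively, occurred in 32.7%. A second annotated start of Fbln5 had no match to either. The letters TGANTCA for AP-1, TATAAA and the SOX core ACAAAG were searched on both strands as well and were in none of these stretches, against 6.75, 12.4 and 16.5% of all promoters. A match is a string of letters and not a bound site.

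The first question was how the genes differed between genotypes in vehicle-treated cells. Elastin, 3 of 3 microfibril genes, Fbln5, Lox and Loxl1 were higher in Notch2tm1.1Ecan cells, Loxl2 and Loxl4 were lower, and Loxl3 was not called. That is 9 of 10 genes called at an adjusted p under 0.05, where 10.5% of the 19432 genes tested were called (6.19% higher and 4.35% lower). In 9 of the 10 genes the 4 libraries of one genotype did not overlap the 4 of the other, as in 16.2% of all genes. The median log2 fold change of the 10 was 0.33, against -0.0020 over all genes tested. Without control vehicle replicate 4 the count was again 7 higher and 2 lower.

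**Figure D1:**
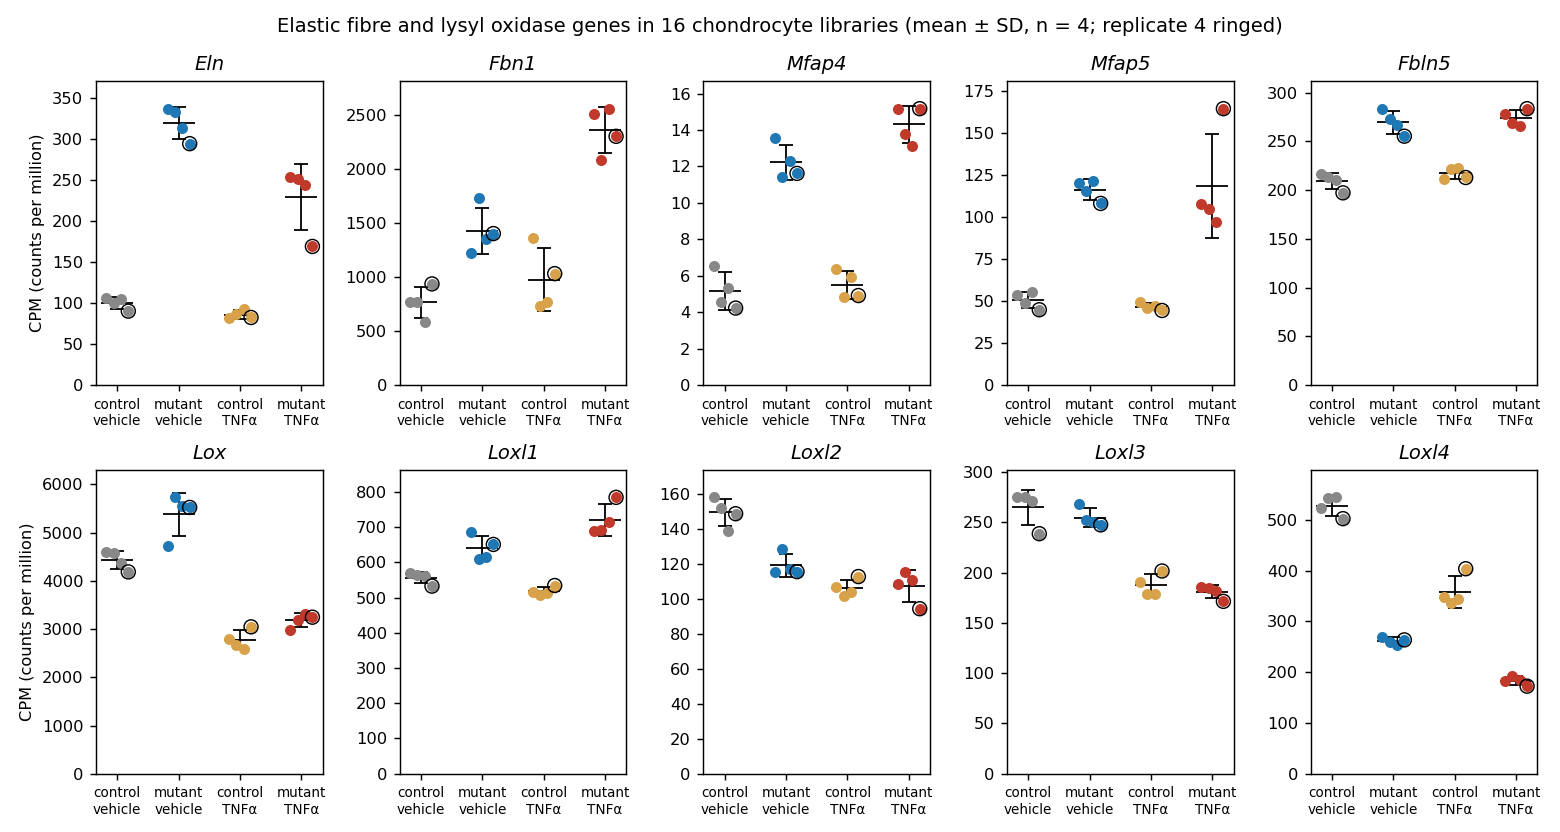
Level of each of the 10 genes in CPM (vertical axes from 0) in the 16 libraries, with each point 1 library, the horizontal bar the group mean and the whiskers the SD (n = 4); replicate 4 of each group is ringed, and mutant denotes Notch2tm1.1Ecan. Eln, Mfap4 and Mfap5 libraries of the mutant lie above every control library of the same treatment, Loxl4 libraries of the mutant lie below, and the ringed mutant TNFα library is low for Eln (169 CPM) and high for Mfap5 (165 CPM).

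Eln (ENSMUSG00000029675, chr5:134731445-134776322 in GRCm39, minus strand) encodes tropoelastin, the monomer of the elastic core. It measured 106, 99.9, 105 and 90.0 CPM in the 4 control vehicle libraries and 337, 333, 314 and 294 CPM in the 4 Notch2tm1.1Ecan vehicle libraries. Every Notch2tm1.1Ecan library lay above every control library, and the gap between the groups was wider than the spread within either. The fold change was 3.20, or 1.68 ± 0.06 on the log2 scale (SE, edgeR quasi-likelihood adjusted p = 1.8e-14), the largest of the 10.

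Each of the 3 microfibril genes was higher. Fbn1 (ENSMUSG00000027204, chr2:125142514-125349913, minus strand) encodes fibrillin-1, whose mutation causes Marfan syndrome, and it measured 767, 774, 586 and 938 CPM in control and 1227, 1731, 1349.9 and 1404 CPM in Notch2tm1.1Ecan cells. It had the widest spread of the 3 in Notch2tm1.1Ecan vehicle cells, and its log2 fold change was 0.90 ± 0.17 (SE, adjusted p = 0.020). That call was lost when control vehicle replicate 1 or 2 or Notch2tm1.1Ecan vehicle replicate 3 or 4 was left out, with adjusted p of 0.061, 0.058, 0.053 and 0.058 and log2 fold changes of 0.90 to 0.92.

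Mfap5 (ENSMUSG00000030116, chr6:122470878-122508875, plus strand) encodes a small glycoprotein that binds fibrillin. It measured 53.8, 48.9, 55.6 and 44.9 CPM in control and 120.1, 116, 122 and 108 CPM in Notch2tm1.1Ecan vehicle libraries, 2.30-fold higher (log2 1.20 ± 0.07 SE, adjusted p = 1.3e-11). Mfap4 (ENSMUSG00000042436, chr11:61376212-61379727, plus strand), whose product binds fibrillin and tropoelastin, was low throughout. Its levels were 6.52, 4.57, 5.34 and 4.23 CPM in control and 13.6, 11.4, 12.3 and 11.6 CPM in Notch2tm1.1Ecan vehicle libraries, 2.36-fold higher (log2 1.24 ± 0.13 SE, adjusted p = 4.1e-07). Mfap4 rested on as few as 60 counts in the vehicle libraries (control vehicle replicate 2) and 55 in the smallest library, Notch2tm1.1Ecan TNFα replicate 4. Counting error therefore weighs more on it than on the other genes.

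Fbln5 (ENSMUSG00000021186, chr12:101712556-101785429 in GRCm39, minus strand) was moderately higher. It measured 217, 213, 210.1 and 197 CPM in control and 283, 273, 267 and 255 CPM in Notch2tm1.1Ecan vehicle libraries, a log2 fold change of 0.37 ± 0.05 (SE, adjusted p = 1.4e-05). The groups did not overlap although the change was 1.30-fold.

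Lysyl oxidases did not move as one. Lox (ENSMUSG00000024529) measured 4588, 4573, 4375 and 4185 CPM in control and 4723, 5730.3, 5542 and 5521 CPM in Notch2tm1.1Ecan vehicle libraries (log2 fold change 0.29 ± 0.06 SE, adjusted p = 0.00085). Loxl1 (ENSMUSG00000032334, chr9:58195014-58220495, minus strand), the member most closely tied to elastic fiber upkeep, measured 569, 565, 560.2 and 532 CPM in control and 686, 610.2, 614 and 651 CPM in Notch2tm1.1Ecan cells (log2 fold change 0.21 ± 0.05 SE, adjusted p = 0.0069). Both were higher with no overlap of the groups, by 1.22- and 1.16-fold.

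Loxl4 (ENSMUSG00000025185, chr19:42580711-42601252 in GRCm39, minus strand) went the other way and by more. Its levels were 522, 544, 544 and 502 CPM in control and 269.8, 259, 254 and 264 CPM in Notch2tm1.1Ecan vehicle libraries, 2.01-fold lower (log2 fold change -1.01 ± 0.05 SE, adjusted p = 1.6e-12). Loxl2 (ENSMUSG00000034205, chr14:69846209-69933283, plus strand), which also cross-links the collagen of basement membranes, measured 158, 152, 139 and 149 CPM in control and 115, 128, 117 and 116 CPM in Notch2tm1.1Ecan cells (log2 fold change -0.32 ± 0.05 SE, adjusted p = 0.00020). Loxl3 (ENSMUSG00000000693, chr6:83011152-83029543, plus strand) measured 239 to 275 CPM in control and 247 to 268 CPM in Notch2tm1.1Ecan libraries, with a log2 fold change of -0.050 and a 95% interval of -0.16 to 0.060. Exons of an opposite-strand gene cover 25.3% of the exon length of Loxl3 (Htra2), 20.1% of that of Fbn1 (Gm9913) and 17.1% of that of Loxl2 (R3hcc1). The strand setting of the counting is not given in the sources used here, so reads of these pairs cannot be told apart without it.

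Markers of several cell types differed between genotypes in these bulk samples, in which fewer cells of a type and less RNA per cell cannot be told apart. All 14 chondrocyte markers were lower in Notch2tm1.1Ecan vehicle cells, and their summed level ran from 51876 to 55674 CPM in control and from 32353 to 37587 CPM in Notch2tm1.1Ecan libraries. Of 14 fibroblast and perichondrium markers 7 were higher and 1 lower (summed level 36771 to 40556 against 42786 to 46049 CPM), and of 8 smooth muscle markers 6 were higher and none lower (2000.3 to 2281 against 3812 to 4432 CPM). Macrophage markers were higher for 9 of 12 (73.8 to 80.3 against 138 to 162 CPM), endothelial markers for 3 of 7 (9.89 to 12.3 against 19.2 to 23.8 CPM) and tenocyte markers for 2 of 4 (209 to 219 against 249 to 274 CPM), with none lower in these 3 lists. No marker was at 0 in all libraries of a group, and 4 endothelial and 2 macrophage markers averaged under 1 CPM in control vehicle cells. Their part in the elastic fiber results was not tested.

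With TNFα the genotype difference was measured in 8 other libraries, none of which entered the vehicle comparison. The sources used here do not say whether they came from the same cell preparations as the vehicle libraries. Eln, Fbn1, Mfap4, Mfap5, Fbln5, Lox and Loxl1 were higher in Notch2tm1.1Ecan cells and Loxl4 was lower, while Loxl2 and Loxl3 were not called. This was 8 of 10 genes, where 9.94% of 19227 genes were called (5.63% higher and 4.31% lower), and 7 of 10 did not overlap, as in 14.8% of all genes. The same 7 genes were higher and the same 1 was lower under both treatments. Since the genes were listed with these differences in view, that match is a description and not independent evidence. With a change of 2-fold or more also required, 4 genes were called with vehicle (Eln, Mfap4 and Mfap5 higher, Loxl4 lower) and 4 with TNFα (Eln, Fbn1, Mfap4 and Mfap5 higher), against 1.26 and 1.41% of all genes.

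**Figure D2:**
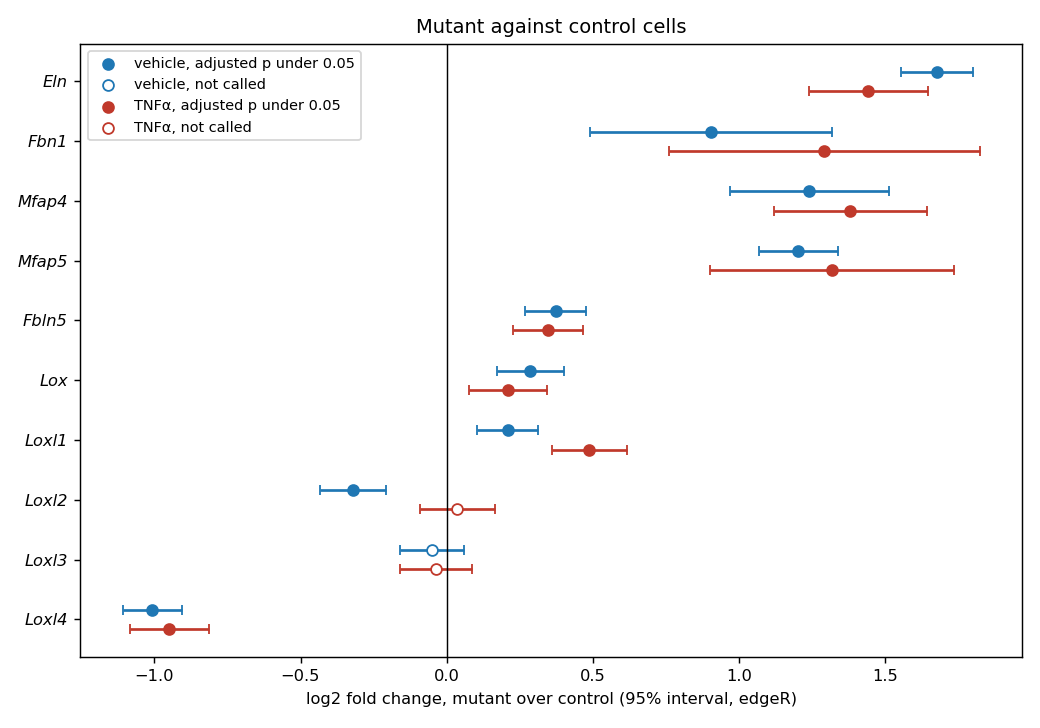
Log2 fold change of Notch2tm1.1Ecan over control cells for the 10 genes with vehicle (blue) and with TNFα (red), with 95% intervals from edgeR; filled points were called at an adjusted p under 0.05. Eln lies farthest to the right (1.68 with vehicle and 1.44 with TNFα) and Loxl4 farthest to the left (-1.01 and -0.95).

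Eln measured 81.4, 86.9, 92.5 and 82.3 CPM in control TNFα libraries and 253, 251, 244 and 169 CPM in Notch2tm1.1Ecan TNFα libraries. The last value, from the smallest library, was low for its group but still above every control. The log2 fold change was 1.44 ± 0.10 (SE, adjusted p = 4.3e-08) and 1.54 without that library.

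Fbn1 measured 1364, 734, 770.3 and 1033 CPM in control and 2509, 2088, 2563 and 2306 CPM in Notch2tm1.1Ecan TNFα libraries. Control TNFα libraries varied most, with an SD of 29.9% of their mean, and the log2 fold change was 1.29 ± 0.22 (SE, adjusted p = 0.013). Mfap4 measured 6.38, 4.83, 5.95 and 4.91 CPM in control and 15.2, 13.8, 13.1 and 15.2 CPM in Notch2tm1.1Ecan libraries (log2 fold change 1.38 ± 0.13 SE, adjusted p = 7.8e-09). Mfap5 measured 49.5, 45.9, 47.3 and 44.4 CPM in control and 108, 105, 97.4 and 165 CPM in Notch2tm1.1Ecan libraries (log2 fold change 1.32 ± 0.18 SE, adjusted p = 0.0032). Replicate 4 was the high value of Mfap5 in the group in which it was the low value of Eln, and the log2 fold change of Mfap5 was 1.15 without it.

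Fbln5 measured 212, 222, 222 and 213 CPM in control and 278, 269, 266 and 284 CPM in Notch2tm1.1Ecan TNFα libraries, and the log2 fold change of 0.35 ± 0.06 (SE, adjusted p = 0.00012) was near that with vehicle. Loxl1 measured 516, 507, 512 and 534 CPM in control and 688, 692, 715 and 784 CPM in Notch2tm1.1Ecan cells (log2 fold change 0.49 ± 0.06 SE, adjusted p = 2.5e-06). Lox measured 2792, 2675, 2594 and 3046 CPM in control and 2983, 3191, 3313 and 3246 CPM in Notch2tm1.1Ecan cells (log2 fold change 0.21 ± 0.06 SE, adjusted p = 0.035). The Lox groups overlapped, and the call did not hold when control TNFα replicate 1, 2 or 3 or Notch2tm1.1Ecan TNFα replicate 2 or 3 was left out, with adjusted p of 0.085, 0.16, 0.18, 0.11 and 0.13.

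Loxl4 measured 348, 336, 344 and 404 CPM in control and 182, 193, 185 and 172 CPM in Notch2tm1.1Ecan TNFα libraries, 1.93-fold lower (log2 fold change -0.95 ± 0.07 SE, adjusted p = 3.7e-11). Its high control value came from control TNFα replicate 4. Loxl2 measured 102 to 113 CPM in control and 94.4 to 115 CPM in Notch2tm1.1Ecan libraries, with a log2 fold change of 0.036 and a 95% interval of -0.092 to 0.17. Loxl3 measured 179 to 202 and 171 to 185 CPM, with a log2 fold change of -0.038 (95% interval -0.16 to 0.085). With TNFα the summed chondrocyte markers ran from 37621 to 44601 CPM in control and from 20396 to 23272 CPM in Notch2tm1.1Ecan libraries, all 14 again lower. Fibroblast and perichondrium markers were higher for 9 and lower for 1 of 14 (35321 to 39407 against 40886 to 50310.1 CPM), smooth muscle markers higher for 4 and lower for 1 of 8 (1178 to 1400.5 against 2048 to 2364 CPM) and macrophage markers higher for 10 of 12 (87.9 to 103 against 181 to 207 CPM). Endothelial markers were higher for 3 of 7 (13.1 to 15.6 against 21.2 to 28.1 CPM), and tenocyte markers higher for 2 and lower for 1 of 4 (209.5 to 235 against 313 to 341 CPM). Their part in these differences was not tested.

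Whether the genotype difference itself changed with TNFα was tested as an interaction over all 16 libraries. None of the 10 genes was called by edgeR, where 0.474% of 21321 genes were, and 2 had an unadjusted p under 0.05 (Loxl1 and Loxl2). Loxl2 came closest, with a difference of the log2 fold changes of 0.35 ± 0.09 (SE, adjusted p = 0.058), and was followed by Loxl1 at 0.27 ± 0.08 (SE, adjusted p = 0.12). DESeq2 called both, with adjusted p of 0.0018 for Loxl2 and 0.040 for Loxl1. The edgeR call for Loxl2 was also made without control vehicle replicate 3 (adjusted p = 0.041), Notch2tm1.1Ecan vehicle replicate 2 (0.046), control TNFα replicate 4 (0.033) or Notch2tm1.1Ecan TNFα replicate 4 (0.011), and that for Loxl1 without Notch2tm1.1Ecan vehicle replicate 1 (0.033), and both were called without both control replicate 4 libraries (0.021 for Loxl2 and 0.043 for Loxl1). For Eln the difference was -0.24 with a 95% interval of -0.53 to 0.044, and for Fbn1 0.38 with an interval of -0.23 to 0.99, so sizeable changes in either are within the interval.

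TNFα against vehicle was compared within each genotype, and these comparisons share libraries with those between genotypes. In control cells Eln, Lox, Loxl2, Loxl3 and Loxl4 were lower with TNFα and none of the 10 was higher, at 5 of 10 where 44.2% of 19338 genes were called (23.3% higher and 20.9% lower). None was higher at an unadjusted p under 0.05 or by DESeq2 either. In Notch2tm1.1Ecan cells Eln, Lox, Loxl3 and Loxl4 were lower and Fbn1 and Loxl1 were higher, at 6 of 10 where 44.5% of 19633 genes were called (22.6% higher and 21.9% lower). Groups did not overlap for 4 of 10 genes in control and 7 of 10 in Notch2tm1.1Ecan cells, against 41.8 and 40.3% of all genes. None was called in either genotype when a change of 2-fold or more was also required, where 11.8 and 13.9% of all genes were.

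**Figure D3:**
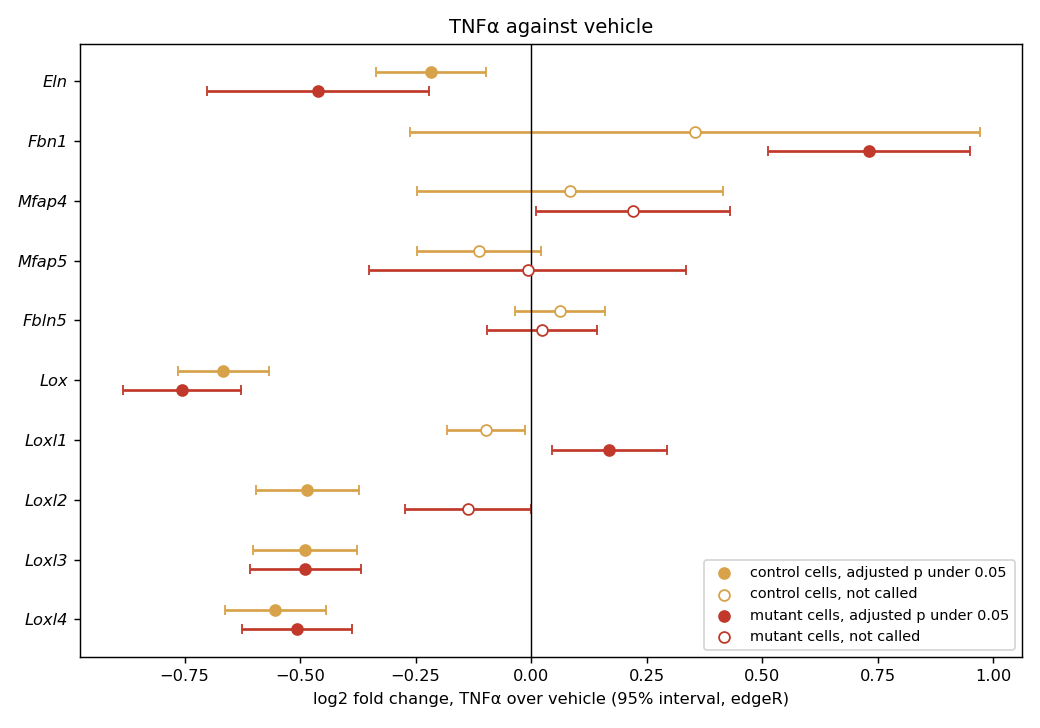
Log2 fold change of TNFα over vehicle for the 10 genes in control cells (amber) and Notch2tm1.1Ecan cells (red, labelled mutant), with 95% intervals from edgeR; filled points were called at an adjusted p under 0.05. Lox, Loxl3, Loxl4 and Eln lie left of 0 in both genotypes, Lox at -0.67 and -0.76, and Fbn1 lies at 0.35 in control and 0.73 in Notch2tm1.1Ecan cells.

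Lox had the largest fall of the 10 genes in both genotypes. Its mean went from 4430.4 ± 190.2 to 2777 ± 197 CPM (SD, n = 4) in control cells and from 5379 ± 448 to 3183 ± 143 CPM in Notch2tm1.1Ecan cells. The log2 fold changes were -0.67 ± 0.05 (SE, adjusted p = 7.7e-08) and -0.76 ± 0.06 (SE, adjusted p = 6.3e-11), with no overlap in either genotype. Loxl4 fell by 0.55 ± 0.05 and 0.51 ± 0.06 on the log2 scale (SE, adjusted p = 1.6e-08 and 3.9e-08) and Loxl3 by 0.49 ± 0.05 and 0.49 ± 0.06 (SE, adjusted p = 1.5e-07 and 7.3e-08). Control values were refitted without 1 library at a time and without both control replicate 4 libraries. They then ran from -0.74 to -0.63 for Lox, -0.64 to -0.52 for Loxl4 and -0.58 to -0.46 for Loxl3. Loxl2 fell by 0.48 ± 0.05 in control cells (SE, adjusted p = 1.4e-07), while in Notch2tm1.1Ecan cells, where it was already lower with vehicle, its log2 fold change was -0.14 ± 0.07 (SE, adjusted p = 0.098).

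Loxl1 was the exception among lysyl oxidases. In Notch2tm1.1Ecan cells it was higher with TNFα (log2 fold change 0.17 ± 0.06 SE, adjusted p = 0.024), a call that was lost without vehicle replicate 2, 3 or 4 or TNFα replicate 4 of that genotype (adjusted p = 0.087, 0.11, 0.051 and 0.052). In control cells the log2 fold change was -0.098 ± 0.04 (SE, adjusted p = 0.055), a value on the edge of the threshold: on all 8 libraries it was called with DESeq2 (adjusted p = 0.030), with RLE scaling in place of TMM (0.038) and with the filterByExpr filter on low counts (0.038). It was also called without control vehicle replicate 4 (0.023), without control TNFα replicate 4 (0.011) and without both (0.0021). Both directions were set against each other in the interaction given above, which was not called by edgeR.

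Elastin was lower with TNFα in both genotypes. The log2 fold change was -0.22 ± 0.06 in control cells (SE, adjusted p = 0.0035), where the groups overlapped, and -0.46 ± 0.11 in Notch2tm1.1Ecan cells (SE, adjusted p = 0.0043), where they did not. Without the low Notch2tm1.1Ecan TNFα replicate 4 the latter was -0.35. Fbn1 was 1.66-fold higher with TNFα in Notch2tm1.1Ecan cells (log2 0.73 ± 0.10 SE, adjusted p = 5.5e-05), and its change in control cells was 0.35 ± 0.25 (SE, adjusted p = 0.33) with overlapping groups.

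Mfap4, Mfap5 and Fbln5 were not called with TNFα in either genotype. The 95% intervals of the log2 fold change were -0.25 to 0.41 for Mfap4, -0.25 to 0.022 for Mfap5 and -0.036 to 0.16 for Fbln5 in control cells. In Notch2tm1.1Ecan cells they were 0.011 to 0.43 for Mfap4 (adjusted p = 0.082 in edgeR), -0.35 to 0.33 for Mfap5 and -0.095 to 0.14 for Fbln5. Mfap5 turned on single libraries: it was lower with TNFα in control cells without control vehicle replicate 4 (log2 fold change -0.17, adjusted p = 0.028) and lower in Notch2tm1.1Ecan cells without TNFα replicate 4 (-0.17, adjusted p = 0.026). Mfap4 was called higher in Notch2tm1.1Ecan cells without vehicle replicate 1 (0.27, adjusted p = 0.024) and with filterByExpr (0.24, adjusted p = 0.048).

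Levels per length show how these shifts changed the make-up of the family. Lox made 72.2 ± 0.34% of the summed CPM per kilobase of the 5 lysyl oxidases in control vehicle cells (SD, n = 4), 77.5 ± 2.23% in Notch2tm1.1Ecan vehicle, 66.9 ± 0.71% in control TNFα and 67.9 ± 0.77% in Notch2tm1.1Ecan TNFα cells. The share of Loxl4 was 7.55 ± 0.24 and 7.56 ± 0.25% in control cells with vehicle and TNFα and 3.32 ± 0.27 and 3.44 ± 0.22% in Notch2tm1.1Ecan cells. Thus the Loxl4 share differed between genotypes without overlap and was nearly level between treatments, while the Lox share was lower with TNFα in both genotypes.

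Loxl1 took 13.0 ± 0.18% of the family with vehicle and 17.9 ± 0.71% with TNFα in control cells, and 13.3 ± 1.51% and 22.0 ± 1.01% in Notch2tm1.1Ecan cells. In control cells its share rose with TNFα while its mean level went down, from 557 to 517 CPM. In Notch2tm1.1Ecan cells its mean level went from 640 to 720 CPM. The family total was 1284 ± 51.6 and 1450.3 ± 81.6 CPM per kilobase in control and Notch2tm1.1Ecan vehicle cells. With TNFα this total was lower, at 868 ± 53.3 and 980.0 ± 36.2 CPM per kilobase. Loxl3 held between 4.30 and 5.27% and Loxl2 between 1.55 and 2.30% of the family as group means. Using all annotated exons as the length gave Lox 74.2, 79.4, 69.2 and 70.5% in the 4 groups.

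**Figure D4:**
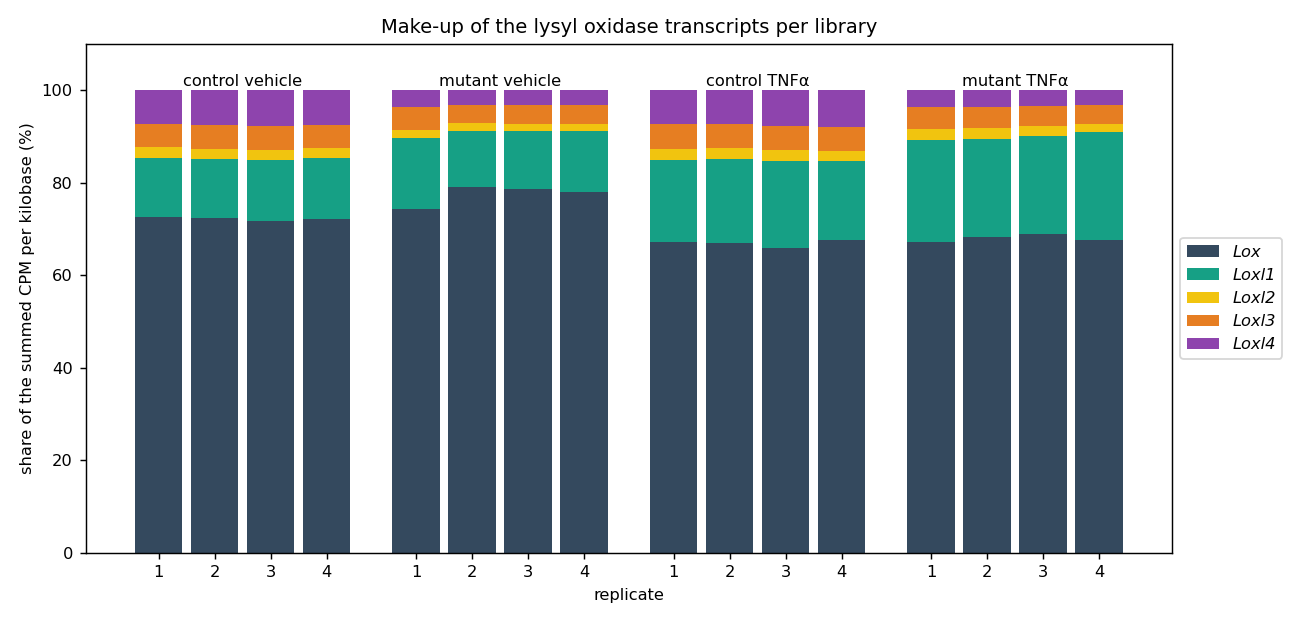
Share of each lysyl oxidase gene in the summed CPM per kilobase of the family (%, stacked bars from 0 to 100) in each of the 16 libraries, by group and replicate; mutant denotes Notch2tm1.1Ecan. The Loxl4 segment at the top is about 7.6% of every control bar on average and about 3.4% of the mutant bars, and the Loxl1 segment is widest in mutant TNFα libraries (22.0% on average).

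Another 42 genes of the elastic fiber and its cross-linking enzymes were followed as a list, of which 40 passed the filter. With vehicle 11 were higher and 6 lower in Notch2tm1.1Ecan cells, and with TNFα again 11 and 6. This was 42.5% called in each, against 10.5 and 9.94% of all genes. The 42 were listed with earlier results of these data known, and the share over all genes is not matched for expression level. In both treatments 9 were higher (Bmp1, Ctss, Emilin2, Fbln1, Fbln2, Ltbp2, Mfap2, Mmp12 and Postn) and 4 lower (Efemp1, Fbln7, Neu1 and Plod2), and none was called in opposite directions. The median log2 fold changes, 0.027 and 0.028, were near 0, and those of the 10 genes were 0.33 and 0.42. With DESeq2 the vehicle counts were 10 higher and 10 lower.

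**Figure D5:**
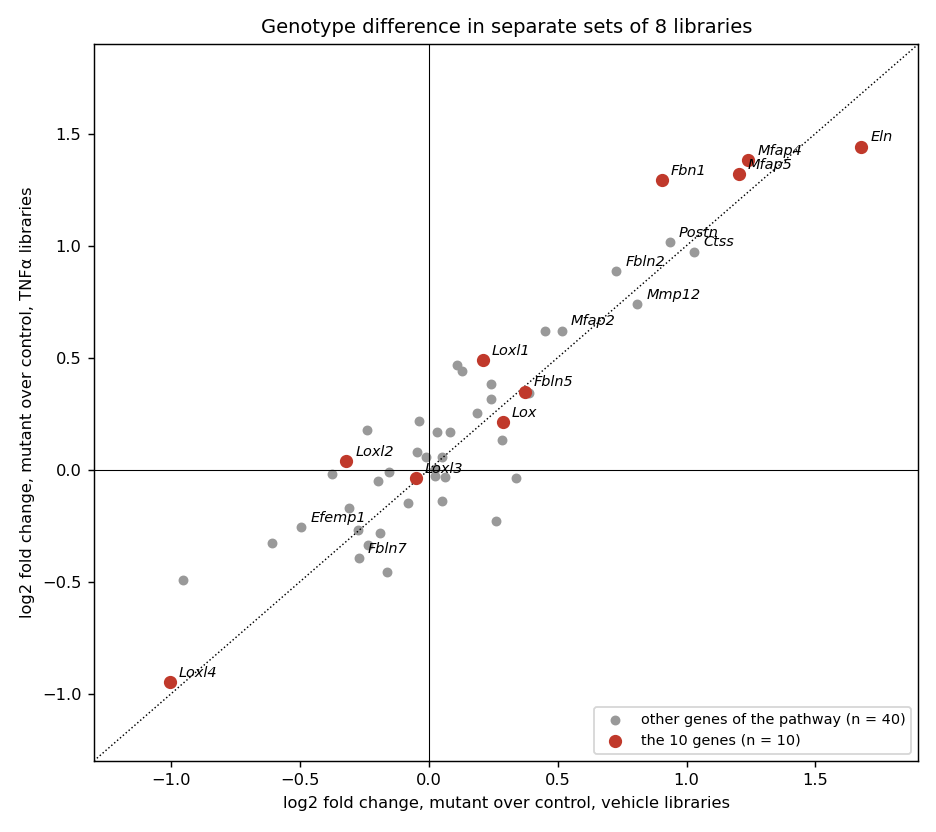
Log2 fold change of Notch2tm1.1Ecan over control cells in the 8 vehicle libraries (horizontal) and the 8 TNFα libraries (vertical), which share no library, for the 10 genes (red) and 40 other genes of the pathway (grey); the dotted line marks equal values. Eln, Mfap4, Mfap5 and Fbn1 lie at the upper right and Loxl4 at the lower left, and all grey points but Ctss and Postn lie within 1 log2 unit of 0 on both axes. Both lists were chosen with earlier results of these data known.

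Among partners of the lysyl oxidases, Postn (periostin, a scaffold that brings BMP1 to lysyl oxidase) measured 252 to 287 CPM in control and 451 to 524 CPM in Notch2tm1.1Ecan vehicle libraries (log2 fold change 0.93 ± 0.06 SE, adjusted p = 5.4e-11) and had a log2 fold change of 1.02 with TNFα. Bmp1, the protease that activates pro-lysyl oxidase, was higher by 0.24 and 0.38 on the log2 scale (adjusted p = 0.0037 and 8.3e-05 in edgeR). Efemp2, whose product fibulin-4 brings lysyl oxidase to elastin, had log2 fold changes of 0.19 with vehicle (adjusted p = 0.041) and 0.25 with TNFα (adjusted p = 0.050), both at the edge of the threshold. The vehicle call was lost with DESeq2 (0.052), RLE scaling (0.051), filterByExpr (0.056) or the fit to all 16 libraries (0.20), and without any 1 of the control vehicle libraries or Notch2tm1.1Ecan vehicle replicate 4 (0.075 to 0.12). The TNFα value was called with DESeq2 (0.029), the fit to all 16 libraries (0.034) and no filter beyond 1 count (0.0017), and without Notch2tm1.1Ecan TNFα replicate 2 or 3 (0.040 and 0.029). Plod2, a collagen lysyl hydroxylase, was lower by 0.27 in both (adjusted p = 0.0085 and 0.0045), a call with vehicle that was lost without control vehicle replicate 4 (0.052).

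Of the 9 other microfibril genes, 1 was called with vehicle (11.1%) and 8 were not, near the 10.5% of all genes called. At an unadjusted p under 0.05 there were 5 of the 9, and no share over all genes was taken at that p. With TNFα 2 were higher (Mfap2 and Adamtsl4) and 2 lower (Thsd4 and Adamtsl5), Adamtsl4 and Adamtsl5 being named after their values were seen. Of all genes, 5.63% were called higher and 4.31% lower between genotypes with TNFα. Mfap2, the close relative of Mfap5, was called with both treatments, higher by 0.52 with vehicle and 0.62 with TNFα (edgeR adjusted p = 0.00020 and 3.2e-06). Fbn2, the fibrillin of early development, had log2 fold changes of 0.11 and 0.47 with overlapping groups (adjusted p = 0.79 and 0.38). Fbln2 was higher by 0.73 and 0.89 (adjusted p = 1.4e-10 and 5.2e-11), whereas Efemp1 (fibulin-3) was lower with log2 fold changes of -0.49 and -0.26 (adjusted p = 1.8e-06 and 0.010, the latter 0.060 without Notch2tm1.1Ecan TNFα replicate 1) and Fbln7 with -0.27 and -0.40 (adjusted p = 0.0018 and 9.0e-05). Ltbp1, which tethers latent TGF-β to microfibrils, was lower with vehicle (-0.31, adjusted p = 5.0e-05) and not called with TNFα (-0.17, adjusted p = 0.21). Thsd4, which binds fibrillin-1, measured 8.84, 11.3, 9.39 and 18.03 CPM in control and 7.21 to 8.54 CPM in Notch2tm1.1Ecan vehicle libraries, the high control value being that of replicate 4. Its log2 fold change with vehicle was -0.61 (adjusted p = 0.13) and -0.33 without that library (adjusted p = 0.096), and on all 8 libraries it passed with DESeq2 (0.013) or when every gene with a count was kept (2.0e-05), as it did without control vehicle replicate 1 (0.034). With TNFα it was -0.33 (adjusted p = 0.0022), a call lost in the fit to all 16 libraries (0.18).

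Elastin-degrading enzymes included Ctss (cathepsin S), higher by 1.03 and 0.97 on the log2 scale (edgeR adjusted p = 5.4e-07 and 1.2e-07), from 5.91 to 7.62 CPM in control to 13.0 to 15.5 CPM in Notch2tm1.1Ecan vehicle libraries. Mmp12, the macrophage elastase, was higher by 0.81 and 0.74 (adjusted p = 0.012 and 0.0014), the former with overlapping groups and lost without control vehicle replicate 1, 2 or 3 or Notch2tm1.1Ecan vehicle replicate 2 (adjusted p = 0.055, 0.055, 0.051 and 0.069). Both genes are also made by macrophages, whose marker levels are given above, and the part of macrophages in these differences was not tested. Neu1, the sialidase of the elastin receptor, was lower with log2 fold changes of -0.24 and -0.33 (adjusted p = 0.046 and 0.0024), the vehicle call being lost without control vehicle replicate 1 or 3 or Notch2tm1.1Ecan vehicle replicate 2, 3 or 4 (adjusted p from 0.078 to 0.15).

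With TNFα, 21 genes of this wider list were higher and 10 lower in control cells (77.5% called). In Notch2tm1.1Ecan cells 22 were higher and 7 lower (72.5%). Of all genes, not matched for expression level, 44.2 and 44.5% were called. Among genes of elastin degradation and the elastin receptor, 8 of the 9 tested were higher in each genotype. Of all genes, 23.3% were called higher in control and 22.6% in Notch2tm1.1Ecan cells. Macrophage markers were higher for 4 of 12 and lower for 1 in control cells, and higher for 7 of 12 and lower for 1 in Notch2tm1.1Ecan cells. Their summed level in control cells was 73.8 to 80.3 CPM with vehicle and 87.9 to 103 CPM with TNFα. In Notch2tm1.1Ecan cells it was 138 to 162 and 181 to 207 CPM, and the part of macrophages was not tested. Mmp9, a gelatinase that cuts elastin, measured 0.608, 0.305, 0.579 and 6.67 CPM in control vehicle and 38.7 to 47.2 CPM in control TNFα libraries, the high vehicle value being that of replicate 4. Its log2 fold change was 4.36 ± 0.64 (SE, adjusted p = 0.0017) and 6.45 without that library, and it was 4.73 ± 0.12 in Notch2tm1.1Ecan cells (SE, adjusted p = 3.0e-22).

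Thsd4 was higher with TNFα by 2.30 ± 0.23 in control (2.58 without control vehicle replicate 4) and 2.57 ± 0.09 in Notch2tm1.1Ecan cells on the log2 scale (SE, edgeR adjusted p = 0.00022 and 5.8e-19), and Emilin3 by 2.79 ± 0.52 and 2.33 ± 0.52 (SE, adjusted p = 0.00013 and 0.00052) from at most 0.359 CPM with vehicle. Fbn2 was lower with log2 fold changes of -0.95 and -0.61 (adjusted p = 0.032 and 0.00020), Plod2 with -0.70 and -0.71 (8.3e-10 and 1.1e-08), Ltbp1 with -0.59 and -0.46 (9.7e-08 and 1.3e-06), and the copper importer Slc31a1 with -0.32 and -0.52 (0.00012 and 1.7e-06). The Fbn2 call in control cells did not hold when control vehicle replicate 1, 2 or 4 or control TNFα replicate 2 or 3 was left out (adjusted p = 0.068, 0.078, 0.068, 0.058 and 0.085) or without both control replicate 4 libraries (0.052). Mfap2 (0.31 and 0.41) and Bmp1 (0.31 and 0.43) were higher in both genotypes, and Efemp2 was not called in either (adjusted p = 0.19 and 0.91), though it was lower in control cells without control TNFα replicate 4 (-0.10, adjusted p = 0.030) or both control replicate 4 libraries (-0.11, adjusted p = 0.014). Smooth muscle markers were lower with TNFα for 7 of 8 and chondrocyte markers for 11 of 14 in each genotype, fibroblast and perichondrium markers were higher for 5 in each and lower for 4 in control and 3 in Notch2tm1.1Ecan cells of 14, and their part in these changes was not tested. The interaction was called for none of the 40 genes by edgeR, with 4 at an unadjusted p under 0.05, and for 2 by DESeq2.

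Across the 16 libraries the genes with the pattern most like that of Eln, by Pearson's r of log2 CPM over 13431 genes, were Tmem119 (0.98), Cxcl12 (0.97) and Cygb (0.97). Those most like Fbn1 were Lamb1, Dnaaf9 and Pcdh19 (each 0.97), and those most like Lox were Cers6, Pdlim5 and Phldb2 (each 0.99). Without both control replicate 4 libraries the closest were Tmem119, Cygb and Akap12 for Eln and Map1b, Lamb1 and Dnaaf9 for Fbn1. Those for Lox were the same genes in another order. Eln and Lox correlated at 0.50 and Fbn1 and Lox at -0.090, so the main fibrillin and the main lysyl oxidase did not follow one pattern. These values describe 16 libraries that share 4 group means, and no p is given.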

How the data were processed

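RNA-Seq libraries (TruSeq stranded mRNA, NextSeq 500, paired-end reads of 75 bp) were analyzed from the gene counts deposited by the authors, 1 file of raw counts per library for 55414 Ensembl identifiers. The authors trimmed, mapped with HISAT2 and counted with htseq-count. The submitters' processing notes name GRCm38 and HISAT2 2.1.0, whereas the study's methods describe a newer build and release, and 665 identifiers (0.018% of counts) had no match in GENCODE M39 (GRCm39), which gave names and positions. Entries that name no gene (8.81 to 12.1% of fragments) were left out.

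Counts were tested with edgeR 4.0.16 (quasi-likelihood, TMM, robust) in R 4.3.3 on the 8 libraries of each comparison, or all 16 for the interaction, after removing genes with fewer than 10 summed counts. Calls are at a Benjamini-Hochberg adjusted p under 0.05 over all genes tested, given per gene as size against spread. The test was checked on simulated data. DESeq2 1.42.0, limma 3.58.1 (used by edgeR) and Python 3.11.15 served the alternatives and tables. Correlations used log2(CPM + 0.5) of genes with a mean of at least 1 CPM.

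The 10 genes, the wider list of 42 and the marker lists were chosen with earlier results of these data known. Shares called over all genes tested are not matched for expression level, and none was taken at an unadjusted p. Named were all 10 genes, and of the 42 the 3 largest rises and 3 largest falls called in each comparison plus Fbn2, Mfap2, Efemp2 and Bmp1. Alternatives were RLE scaling, 2 other filters, other thresholds, a fit to all libraries, a replicate block and leaving out libraries. Intervals cover the spread between libraries, and Lox sequence and coordinates are not reported here.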

Additional observations from a re-analysis of the deposited data

Results flagged for a closer look

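In 4 of the 40 sets of 4 libraries (10 genes in 4 groups), 1 library lay far from the other 3 relative to the range of the set, where chance gives about 1 in 20. Of Notch2tm1.1Ecan TNFα libraries, replicate 4 had 168.85 CPM of Eln, against 244 to 253 CPM in the others, and 164.712 CPM of Mfap5, against 97.4 to 108 CPM. It was also the smallest library, with 3439726 counts. Notch2tm1.1Ecan vehicle replicate 2 had 128.49 CPM of Loxl2, against 115 to 117 CPM in the others. Control vehicle replicate 4, which had the high TNFα target level, had 238.595 CPM of Loxl3, against 271 to 275 CPM in the others.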

How the results depend on the processing

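Over all alternatives 1452 of 1558 recomputed log2 fold changes kept their direction and side of the threshold, 41 lost and 34 gained a call, and 31 changed sign. At a log2 fold change of at least 1, 4 and 4 of the 10 genes were called between genotypes with vehicle and TNFα. For TNFα against vehicle 0 and 0 were called in control and Notch2tm1.1Ecan cells. Of the 40 tested genes of the wider list 1, 1, 4 and 4 were called, where 1.26, 1.41, 11.8 and 13.9% of all genes were. Interaction calls among the 10 rose from 0 to 1 at an adjusted p under 0.1, with RLE scaling, with filterByExpr and with no filter beyond 1 count, and to 2 with DESeq2 or without both control replicate 4 libraries, and those of the wider list to 2 in the last 2 cases. Leaving out 1 library at a time gave 8 to 9, 7 to 8, 5 to 7, 5 to 7 and 0 to 1 of the 10 (in the order genotype with vehicle, genotype with TNFα, TNFα in control cells, TNFα in Notch2tm1.1Ecan cells, interaction) and 14 to 19, 15 to 18, 27 to 32, 27 to 30 and 0 to 2 of the wider list. Of all genes, 1578 to 2666, 1458 to 2075, 7757 to 8549, 7915 to 9307 and 51 to 156 were called in the same order. The cause was not tested.

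Directions turned only in log2 fold changes that were not called in the main fit. The largest of these were 0.15 and 0.12 for the interaction of Mfap4 and Mfap5 and 0.11 for Fbn2 between genotypes with vehicle. Between genotypes, without 1 library at a time, Loxl2 with TNFα ran from -0.0081 (without Notch2tm1.1Ecan TNFα replicate 2) to 0.071 and Fbn2 with vehicle from -0.0027 to 0.17. For TNFα in control cells, Mfap4 ran from -0.012 (without control vehicle replicate 4) to 0.21. For TNFα in Notch2tm1.1Ecan cells, Mfap5 was 0.028 with DESeq2, 0.014 with filterByExpr and 0.0029 in the fit to all libraries and ran from -0.17 to 0.076 without 1 library, Fbln5 ran from -0.0037 to 0.062, and Efemp2 was 0.0095 with filterByExpr and ran from -0.11 to 0.067. For the interaction, Loxl3 was -0.0059 with no filter beyond 1 count and ran from -0.022 to 0.093, Mfap4 from -0.0086 to 0.22, Mfap5 from -0.049 to 0.20 and Efemp2 from -0.036 to 0.13.

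Same-numbered libraries of different groups showed little shared deviation, with 24 correlations from -0.19 to 0.14 and 1 of them over 0.1. Each library was also compared with all libraries of another group, and in 3 of 24 such comparisons it correlated best with its own number. Between Notch2tm1.1Ecan vehicle and Notch2tm1.1Ecan TNFα libraries the same-number correlations ran from 0.013 to 0.14. The replicate block gave 9, 7, 5, 6 and 0 calls among the 10 genes, the 1 lost being Lox with TNFα (adjusted p = 0.079 in edgeR), and 19, 18, 30, 29 and 0 among the wider list, with Efemp2 called between genotypes with TNFα (adjusted p = 0.029) and Thsd4 with vehicle (0.0060). The shallowest library, with 3439726 counts, limits Mfap4 and Emilin3 most.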
